A study of Mus musculus with 6 samples.

Results

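Sox9 was the single gene followed here, chosen by its symbol in the deposited table, as 1 of 7340 listed genes. It was measured by RNA sequencing in 6 kidney libraries from WT mice. In 3 libraries the kidney had ischaemia-reperfusion injury (IRI, a stop and return of its blood flow) together with MK-8617. This compound blocks HIF prolyl hydroxylases, the enzymes that tag hypoxia-inducible factor (HIF) for degradation. The other 3 libraries came from IRI alone. The treatment labels of MK-8617 replicates 2 and 3 read MK8618 and MK8619, and their titles MK8617. Groups were taken from the titles, and from the tissue label, which gives kidney where the design text speaks of tumors. The column names carry a 1d tag, and neither strain, age, dose nor route is given in the sources used here. No uninjured kidney was analysed here, so each difference is relative to IRI alone. The series title names Sox9+ renal progenitor cells, so the question for this gene is how its level compares between injured kidneys with and without the compound.

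SOX9 is a transcription factor of the SOX family, which binds DNA through an HMG box and bends it. It drives chondrocyte and Sertoli cell differentiation, and in the developing kidney it acts in the branching ureteric bud. In the adult mouse kidney it is scarce in most tubule cells and is switched on in surviving tubule cells after injury, where its descendants contribute to epithelial repair. Growth factor signalling through the EGF receptor and FGF receptors, and the Notch and YAP/TAZ pathways, are known inputs to Sox9 in several epithelia.

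Sox9 (ENSMUSG00000000567) lies on the plus strand of mouse chromosome 11, from 112782224 to 112787760 in GRCm38. Its GENCODE M21 model has 3 exons and 2 introns with 4135 exonic bases, and 0 other annotated genes overlap it. The deposited FPKM and read values imply the same length of 4135 bases. Reads were counted over whole genes, so coding exons and untranslated regions cannot be separated.

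Counted reads per library came to 16835541 to 17577794 in the MK-8617 group and 18620621 to 19508497 in the IRI group. The table lists only genes with a p-value below 0.05 in the authors' own comparison (largest 0.0499), so Sox9 was tested among genes already selected on this contrast. Kidney markers were present. Umod (uromodulin), the major urinary protein of the thick ascending limb, stood at 864 ± 234 FPKM in MK-8617 libraries and 637 ± 170 FPKM in IRI libraries (SD, n = 3 each). The podocyte gene Nphs1 (nephrin) was also present, at 5.5 ± 0.3 and 4.16 ± 0.291 FPKM in the same groups. Nothing in the labels says that the replicates came from separate animals, so p-values measure the spread between these libraries, which may be technical.

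Sox9 transcripts were 2.95-fold more abundant in the injured kidneys that received MK-8617. The normalised read count, which is the number of reads divided by the library's size factor, was 1523, 1246 and 1119.7 in MK-8617 replicates 1, 2 and 3, against 365, 369.8 and 612 in IRI replicates 1, 2 and 3. All 3 MK-8617 libraries lay above all 3 IRI libraries, and the lowest of them was 1.83 times the highest IRI library. The means were 1296 ± 207 in MK-8617 libraries and 449 ± 141 in IRI libraries (SD, n = 3 each). On the log2(value + 1) scale the difference was 1.56 ± 0.21 (SE), with a 95% confidence interval of 1.09 to 2.02, which is 2.95-fold with an interval of 2.14 to 4.07. The limma adjusted p was 0.001. An exact two-sided permutation test on Sox9 alone gave p = 0.1, the smallest value that 3 against 3 libraries allow. The authors' deposited table puts the log2 fold change at 1.53 (adjusted p = 4.47e-11).

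Expressed per gene length and library total, the result was similar. Sox9 stood at 20.5, 16.7 and 15.1 FPKM in MK-8617 replicates 1, 2 and 3, against 4.99, 5.03 and 8.29 FPKM in IRI replicates 1, 2 and 3. The groups again did not overlap, with means of 17.4 ± 2.74 FPKM in MK-8617 libraries and 6.1 ± 1.89 FPKM in IRI libraries (SD, n = 3 each). On log2(FPKM + 0.1) the difference was 1.53 ± 0.22 (SE) with a 95% interval of 1.02 to 2.04 and a limma adjusted p of 0.0033. The share of tested genes with a lower group mean FPKM than Sox9 was 75.7% with MK-8617 and 49.1% with IRI alone.

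**Figure D1:**
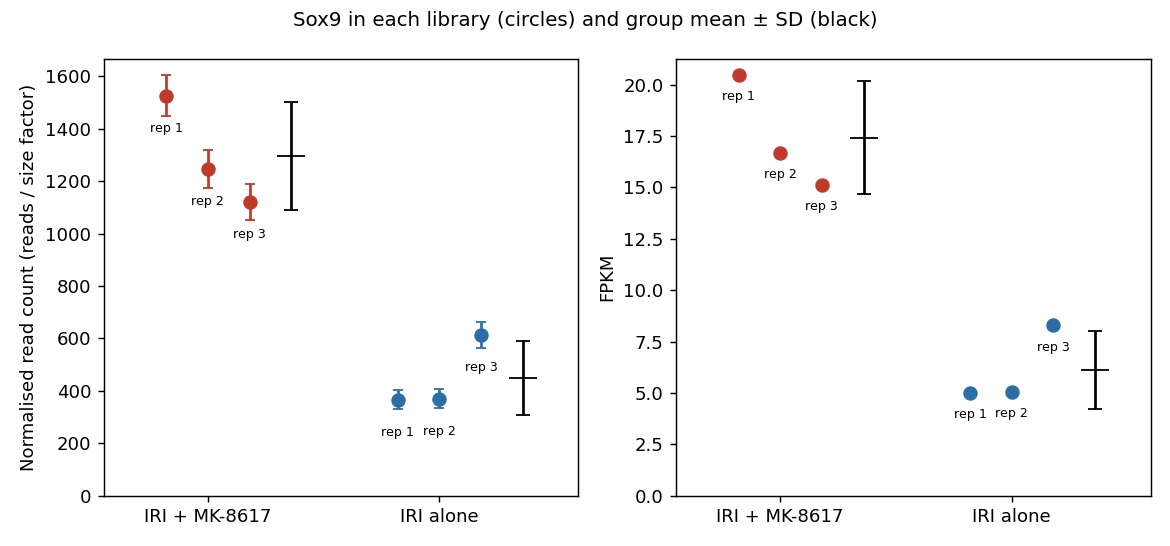
Sox9 per library as normalised read count (left) and FPKM (right), with MK-8617 libraries in red and IRI libraries in blue. Bars on the left circles are exact 95% Poisson intervals, and black marks give the group mean ± SD (n = 3). The MK-8617 libraries lie between 1119.7 and 1523 normalised reads and the IRI libraries between 365 and 612.

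Counting error was small beside the spread between libraries. Sox9 rested on 1487, 1167 and 1053 reads in MK-8617 replicates 1, 2 and 3, and on 386, 406 and 638 reads in IRI replicates 1, 2 and 3. IRI replicate 3 stood apart from the other IRI libraries, with an exact Poisson 95% interval of 565 to 661 normalised reads against 330 to 404 in IRI replicate 1 and 335 to 408 in IRI replicate 2. These intervals cover counting error only. The coefficient of variation was 15.9% in the MK-8617 group and 31.4% in the IRI group. Without IRI replicate 3 the log2 fold change was 1.8 (adjusted p = 3.26e-05 by limma), and without any other library it was 1.43 to 1.66.

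IRI replicate 3 also differed in proximal tubule markers. The 5 listed members of a 15-gene proximal tubule list summed to 3018, 2613 and 2660.2 CPM (reads scaled to the library total) in MK-8617 replicates 1, 2 and 3, against 1644, 1816 and 647 CPM in IRI replicates 1, 2 and 3. Slc27a2, a fatty acid transporter of the proximal tubule named after its values were seen, had 5546 normalised reads in IRI replicate 3 against 19789.7 and 21053 in IRI replicates 1 and 2. The library with the most Sox9 in the IRI group was thus the one with the least of these markers. The part of tubule content in the Sox9 level was not tested. In whole tissue, fewer cells of a type and less RNA per cell cannot be told apart.

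Of 6961 genes that passed the filter on low values, 35.7% were higher and 38.7% lower with MK-8617 at an adjusted p below 0.05, 74.3% in all. On FPKM 30.4% were higher and 37.8% lower, 68.2% in all. In 92.5% of the genes the normalised counts of the groups were fully apart, with MK-8617 libraries above in 44.8% and below in 47.6%. A significant or non-overlapping gene is therefore common in this table. By size, Sox9 was further out, with 310 of the 6961 genes showing a larger log2 fold change, and 95.5% a lower one. By p-value it was less extreme, with 629 genes below it. Among the 2482 genes called higher, whose median log2 fold change was 0.71, 299 had a larger one. The number called higher was 1510 when MK-8617 replicate 1 was left out and 1650 when replicate 3 of that group was.

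The other SOX genes in the table had smaller log2 fold changes than Sox9 in these kidneys, a difference between genes that was not tested. Of 20 family members 6, Sox9 among them, were in the table and tested. With Sox9 counted, 4 of them rose, 0 fell and 2 did not pass the threshold. Their median log2 fold change, again with Sox9, was 0.78 against -0.31 over all tested genes. Among all tested genes 35.7% rose and 38.7% fell. The number of family members that rose was 2, Sox9 itself and Sox18, without MK-8617 replicate 1 or 3 or IRI replicate 1 or 2. Sox18, an endothelial family member, rose by 0.79 ± 0.13 (limma adjusted p = 0.00305), with 26.7, 26.3 and 30.7 FPKM in MK-8617 replicates 1, 2 and 3 against 18.1, 13.7 and 17.5 FPKM in IRI replicates 1, 2 and 3. Its groups did not overlap, and it was the only member with a higher FPKM than Sox9 in each library.

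Sox4, a family member of progenitor and injured epithelial cells, had 7.04, 4.21 and 11.5 FPKM in MK-8617 replicates 1, 2 and 3, against 4.23, 2.92 and 3.54 FPKM in IRI replicates 1, 2 and 3. Its FPKM in MK-8617 replicate 2 fell within the IRI range, although its normalised counts did not overlap. Its log2 fold change was 1 ± 0.31 (adjusted p = 0.0416 by limma), and the call was lost in 7 of 16 alternative settings, including 5 of the 6 that leave out a library. Only without MK-8617 replicate 2 was it kept among those, and without MK-8617 replicate 3 it was 0.65. Sox7, an endothelial relative of Sox18, rose by 0.77 ± 0.21 (adjusted p = 0.0254 by limma), a call lost without replicate 1 (0.82) or 3 (0.65) of the MK-8617 group and without replicate 1 (0.82) or 2 (0.64) of the IRI group.

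Sox6, which cooperates with SOX9 in cartilage, was not past the threshold, at 1.8 ± 0.111 FPKM in MK-8617 libraries and 1.45 ± 0.156 FPKM in IRI libraries (SD, n = 3 each). Its log2 fold change was 0.34 with an interval of 0.06 to 0.62. Sox12, a close relative of Sox4, was at 3.47 ± 0.257 and 4.47 ± 0.481 FPKM in the same groups, with a log2 fold change of -0.34 and an interval of -0.65 to -0.03. The order of FPKM means was Sox18, Sox9, Sox4, Sox12, Sox7 and Sox6 with MK-8617, and Sox18, Sox9, Sox12, Sox4, Sox7 and Sox6 with IRI alone. Neighbours in this order did not overlap between libraries with MK-8617. In the IRI group the ranges of Sox9 and Sox12 met (lowest Sox9 and highest Sox12 library both at 4.99 FPKM), and those of Sox12 and Sox4 and of Sox7 and Sox6 overlapped. The other 14 members, among them the SOX9 partners Sox5 and Sox8, were outside the table and were not tested.

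As a share of the summed FPKM of these 6 genes, Sox9 held 33.2%, 30.4% and 22.9% in MK-8617 replicates 1, 2 and 3, against 14.4%, 17.5% and 22.2% in IRI replicates 1, 2 and 3. The lowest MK-8617 share and the highest IRI share lay close together. MK-8617 replicate 3, where the Sox9 share was lowest, was the library with the most Sox4.

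**Figure D2:**
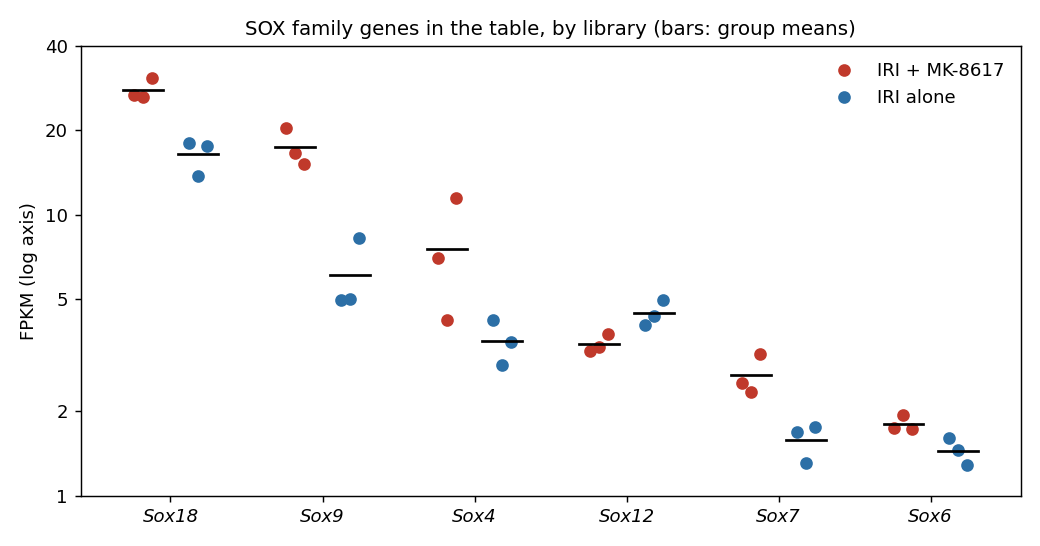
FPKM on a log axis of the 6 SOX family genes in the table, with MK-8617 libraries in red to the left of IRI libraries in blue and bars at the group means. Sox9 and Sox18 are the most abundant per length in both groups, and Sox9 has means of 17.4 FPKM with MK-8617 and 6.1 FPKM with IRI alone.

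Signalling through the EGF receptor is among the inputs known to act upstream of Sox9. Of 16 ligands, receptors and modifiers 8 were in the table and tested, with a median of 0.78. Of these 6 rose, 1 fell and 1 (Lrig1, 0.39 ± 0.14, named after its values were seen) did not pass the threshold. Over all tested genes 35.7% rose and 38.7% fell. Egf itself, made by the thick ascending limb and distal tubule, had 2155, 1139.8 and 1757 normalised reads in MK-8617 replicates 1, 2 and 3, against 394, 229.5 and 449 in IRI replicates 1, 2 and 3. All of its MK-8617 libraries lay well above the IRI libraries, and it rose by a log2 fold change of 2.24 ± 0.28 (limma adjusted p = 0.000803). Hbegf, a ligand induced in injured tubules, rose by 1.04 ± 0.21, and the receptor gene Egfr by 0.77 ± 0.12. Errfi1, a feedback inhibitor of EGFR that EGFR signalling itself induces, rose by 1.37 ± 0.16. The member that fell was Erbb4, the gene of another receptor of the family, named after its values were seen (-1.25 ± 0.25). The other 8 members, among them the EGFR ligand genes Tgfa, Areg and Ereg, were outside the table.

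FGF pathway genes moved in both directions. Of 21 members 10 were tested, of which 8 rose and 2 fell, with a median of 0.58. Among all tested genes 35.7% rose and 38.7% fell. The receptor genes Fgfr1 and Fgfr4 rose by 0.64 ± 0.1 and 0.86 ± 0.11, and Dusp6, a phosphatase that ERK signalling induces and that switches ERK off, by 0.81 ± 0.12. Fgf18, a ligand that acts on chondrocytes, had 205, 238 and 214 normalised reads in MK-8617 replicates 1, 2 and 3, against 41.6, 54.7 and 9.59 in IRI replicates 1, 2 and 3. It rose by 2.91 ± 0.54, and its IRI libraries were low and unequal. The members that fell, named after their values were seen, were the ligand gene Fgf1 (-0.88 ± 0.17) and Etv4 (-0.55 ± 0.16), a transcription factor gene downstream of FGF and RET signalling. The Etv4 call was lost with the length trend removed, with edgeR or DESeq2 on whole reads, and in 5 of the settings that leave out a library. The ligand genes Fgf2, Fgf7, Fgf9, Fgf10 and Fgf20 were outside the table.

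Of 27 Notch pathway genes 13 were tested and 14 were outside the table. Of the tested ones 9 rose and 2 fell, with a median of 0.47, where 35.7% of all tested genes rose and 38.7% fell. The ligand genes Jag1 and Dll4 rose by 0.62 ± 0.12 and 0.88 ± 0.21, Ncstn, a subunit of the gamma-secretase that releases the active receptor, by 0.68 ± 0.11, and the target gene Hes1 by 0.49 ± 0.11. Leaving out replicate 1 of the MK-8617 group left 5 that rose, and leaving out replicate 3 left 3. The members that fell, named after their values were seen, were Rfng, a glycosyltransferase gene that modifies Notch receptors (-0.47 ± 0.13), and the target gene Heyl (-0.75 ± 0.24), and 0 or 1 fell without any one library. The Dll4 call was lost without replicate 2 (0.85) or 3 (0.84) of the MK-8617 group, and that of Hes1 without replicate 1 (0.41).

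Hippo and YAP/TAZ pathway genes were mixed too. Of 23 members 13 were tested, of which 7 rose and 2 fell, with a median of 0.37. Over all tested genes 35.7% rose and 38.7% fell. Ccn1, a secreted matrix protein and a target of YAP, rose by 1.3 ± 0.25, with 5887, 6603 and 11176 normalised reads in MK-8617 replicates 1, 2 and 3 against 4039, 2758 and 2626 in IRI replicates 1, 2 and 3. The kinase gene Lats2 and the adaptor gene Sav1, which restrain YAP, rose by 0.46 ± 0.1 and 0.9 ± 0.19, while Tead2, a DNA-binding partner of YAP, fell (-0.99 ± 0.21), as did Vgll3, a gene for a TEAD cofactor named after its values were seen (-1.11 ± 0.25). The Lats2 call was lost without MK-8617 replicate 1 (0.41). The number that rose was 11 with edgeR or DESeq2 on whole reads, 4 without MK-8617 replicate 1 or IRI replicate 1, and 3 without MK-8617 replicate 3. Ccn2 and Ankrd1, other YAP target genes, were outside the table.

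**Figure D3:**
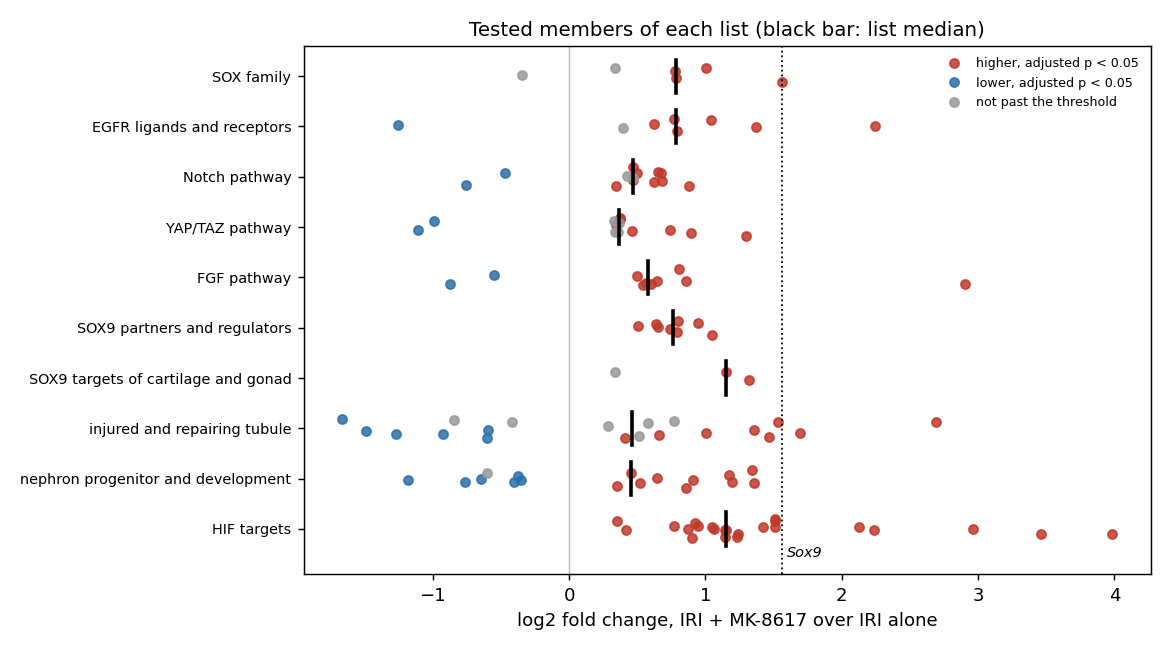
Each point is the log2 fold change, MK-8617 over IRI alone, of a tested member of the named list, in red where higher, blue where lower and grey where not past the threshold. Black bars are list medians and the dotted line marks Sox9 at 1.56. All 23 tested HIF targets are higher, and injury and nephron development genes spread to both sides.

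Genes for proteins that work with SOX9, or that regulate it, were higher wherever they were listed. Of 21 members 8 were tested, of which 8 rose and 0 fell, with a median of 0.76. Of all tested genes 35.7% rose and 38.7% fell. The acetyltransferase genes Ep300 and Crebbp, whose products are SOX9 coactivators in chondrocytes, rose by 0.66 ± 0.1 and 0.8 ± 0.12. Smad3, a mediator of TGF-beta signalling that binds SOX9 in chondrocytes, rose by 0.79 ± 0.11, and Arid5b, a chromatin factor that acts with SOX9 in mouse cartilage, by 0.94 ± 0.13. This list also held Hif1a and Epas1, which encode the HIF alpha subunits. Without a library the count that rose was 6 to 8. The other 13 members, such as Ctnnb1 (beta-catenin) and Gsk3b (the kinase that marks beta-catenin for degradation), were outside the table.

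Few textbook SOX9 targets could be followed. Of 21 target genes known from cartilage and gonad 3 were listed, and the cartilage genes Col2a1, Acan, Comp and Matn1 were outside the table. Col27a1, a fibrillar collagen gene of cartilage, rose by 1.32 ± 0.22 (limma adjusted p = 0.00276), with 3924, 4898 and 2735 normalised reads in MK-8617 replicates 1, 2 and 3 against 1782, 1603 and 1182 in IRI replicates 1, 2 and 3. Vnn1, a pantetheinase gene that SOX9 activates in mouse Sertoli cells and that is abundant in proximal tubule, rose by 1.15 ± 0.19. Its level was 94.4 ± 14.2 FPKM in MK-8617 libraries and 43.8 ± 10.8 FPKM in IRI libraries (SD, n = 3 each). For both genes the groups did not overlap, and IRI replicate 3, the IRI library with the most Sox9, was the lowest of the 6 libraries. The third listed target was Sox6, given above.

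Of 30 genes of injured and repairing tubules, the setting in which Sox9 is known to be switched on, 20 were tested. Of these 8 rose, 6 fell and 6 did not pass the threshold, with a median of 0.46, in a table where 35.7% of genes rose and 38.7% fell, so the split is near that of all tested genes. Havcr1, which encodes the injury marker KIM-1, fell by 1.49 on the log2 scale (SE 0.11), with 346.5 ± 21.9 FPKM in MK-8617 libraries and 982 ± 43.2 FPKM in IRI libraries (SD, n = 3 each). Sox9 and Havcr1 thus moved in opposite directions. The transcription factor genes Myc and Egr1 rose by 1.36 ± 0.12 and 1.47 ± 0.19 and the chemokine gene Cxcl1 by 1.69 ± 0.2. The intermediate filament gene Vim (-1.27 ± 0.21), the secreted chaperone gene Clu (-0.93 ± 0.13) and the hyaluronan receptor gene Cd44 (-1.66 ± 0.22), all named after their values were seen, fell. Summed over the 20 listed members, the level was 4698 to 5371 CPM with MK-8617 and 7815 to 8534 CPM with IRI alone. Clu, the most abundant, made up 31.7% to 36.1% of that sum with MK-8617 and 34.2% to 44.7% with IRI alone. Without it the other 19 members summed to 3087 to 3433 CPM with MK-8617 and 4486 to 5616 CPM with IRI alone. Havcr1, still in that sum, averaged 14408.5 and 40353 normalised reads in the same groups. The sum thus follows its most abundant members, while the list median was 0.46.

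Of 30 nephron progenitor and kidney development genes 17 were tested, of which 10 rose and 6 fell, with a median of 0.45. Among all tested genes 35.7% rose and 38.7% fell. Lhx1 and Irx3, transcription factor genes of the early nephron, rose by 1.36 ± 0.21 and 1.19 ± 0.16, Foxd1, a transcription factor gene of the embryonic stroma, by 1.35 ± 0.21, and the transcriptional coregulator gene Cited2 by 1.17 ± 0.1. The members that fell, named after their values were seen, were Irx1 (-0.76 ± 0.17), Irx2 (-0.65 ± 0.16), Pou3f3 (-0.4 ± 0.09), Emx2 (-0.37 ± 0.12), Tfap2b (-0.35 ± 0.1) and Wnt4 (-1.18 ± 0.35). Among these only the Pou3f3 call was kept in every setting. Irx1 and Irx2 thus moved against their relative Irx3. Six2, Osr1, Eya1 and Cited1, which mark the nephron progenitors of the embryo, were outside the table and were not tested. Without MK-8617 replicate 3, 6 members rose and 1 fell, and without IRI replicate 2, 6 rose. The number that fell was 2 without MK-8617 replicate 1, and 3 without IRI replicate 1 or with DESeq2 on the recovered reads.

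HIF targets, the genes through which the compound is known to act, rose wherever they were tested. Of 25 members 23 were tested, and 23 rose, with a median of 1.15, below the 1.56 of Sox9. Over all tested genes 35.7% rose and 38.7% fell. With a library left out, 20 to 23 of the targets passed the threshold as higher. Bnip3, a mitophagy receptor gene, rose by 2.96 ± 0.14, and its relative Bnip3l rose by 1.51 ± 0.09, a value near that of Sox9. The summed level of the listed targets was 12053 to 12587 CPM with MK-8617 and 5493 to 5634 CPM with IRI alone. IRI replicate 3, which stood apart for Sox9, lay between the other IRI libraries in this sum, at 5566 CPM. Single targets did differ there, in both directions. Slc2a1 had 2929 normalised reads in IRI replicate 3, against 1859 and 1928 in IRI replicates 1 and 2. Vegfa had 2495 against 3492 and 3351, and Car9 54.6 against 106 and 108, in the same libraries. These genes were named after their values were seen. The part of HIF activity in the Sox9 level was not tested.

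Listed genes around Sox9 on chromosome 11 went both ways. GENCODE M21 places 36 other genes with a start within 2 Mb of the start of Sox9, 14 of them protein-coding, and 6 are in the table. The nearest of the listed genes started 866.9 kb away. Cog1, a Golgi trafficking gene (113649169 to 113667054, GRCm38), rose by 0.55 ± 0.12. D11Wsu47e rose by 0.46 ± 0.14, a call lost with the replicate block and without any one of the 6 libraries (0.42 to 0.53). Slc39a11, a zinc transporter gene (-0.66 ± 0.18), Fam104a (-0.5 ± 0.1), Ttyh2 (-0.59 ± 0.11) and the ribosomal protein gene Rpl38 (-3 ± 0.18) fell. The Slc39a11 call was lost without replicate 1 (-0.58) or 3 (-0.63) of the MK-8617 group and without replicate 1 (-0.68) or 2 (-0.5) of the IRI group. Cog1 overlaps Slc39a11 and Fam104a on the opposite strand, and the kit is not described as strand-specific, so their reads are uncertain, as are those of Rpl38, which has many processed copies. Of these neighbours, neither Cog1 nor D11Wsu47e had a log2 fold change as large as that of Sox9.

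The genes most like Sox9 over the 6 libraries were picked by their profile, so they share its raised value in IRI replicate 3 through that choice. Likeness was the root mean square difference between centred log2(value + 1) profiles, computed for 6230 genes with no predicted symbol. The median over these genes was 0.99, and the 10 nearest ran from 0.09 to 0.19, with the next at 0.2. Nearest was Ednrb, the endothelin B receptor gene, with 1136, 949 and 888 normalised reads in MK-8617 replicates 1, 2 and 3, against 322, 281 and 515 in IRI replicates 1, 2 and 3. The order of its libraries was that of Sox9 except for IRI replicates 1 and 2, and it rose by 1.45 ± 0.21 (adjusted p = 0.00159 by limma). Trpm6, the magnesium channel gene of the distal convoluted tubule, came next at 0.12 and rose by 1.55 ± 0.23.

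The remaining nearest genes were Ap3b2, Pnpla2 (adipose triglyceride lipase), Mir17hg (the host transcript of a microRNA cluster), Myrip, Acsl1 (a long-chain acyl-CoA synthetase), Chad (chondroadherin, a cartilage matrix protein), Cebpd (a transcription factor) and Amy1 (amylase). Each passed the threshold, with log2 fold changes of 1.3 (Chad) to 1.73 (Mir17hg). Ap3b2 and Chad rested on few reads, with 4.55 to 8.63 and 4.73 to 8.63 normalised reads in the IRI libraries, and their calls were each lost in 5 of the 6 settings that leave out a library. Amy1 has near-identical relatives, so its count is uncertain. The list describes these libraries and was picked by similarity. Neither its members' fold changes nor their raised value in IRI replicate 3 is therefore a separate result.

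**Figure D4:**
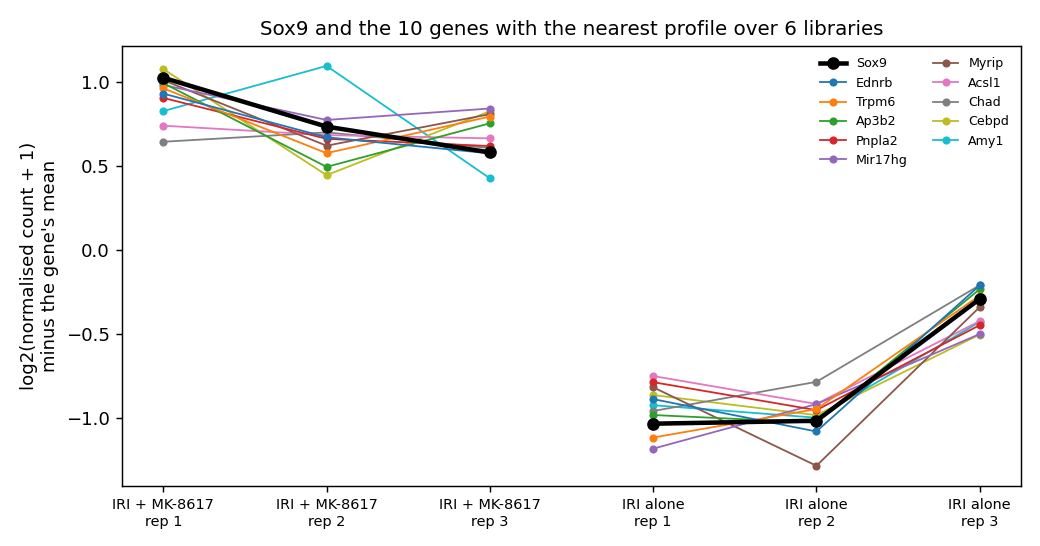
Centred log2 normalised counts of Sox9 (thick black) and its 10 nearest genes in the 6 libraries, MK-8617 on the left. Lines join the values of a gene within a group and imply no order of replicates. Within the IRI group, replicate 3 is the highest library for Sox9 and for each of the 10 genes, which were picked by likeness to it.

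Markers of the cell types a kidney holds moved in both directions beside Sox9. The marker counts here and below stand beside 35.7% higher and 38.7% lower over all tested genes. General epithelial markers were lower on balance, with 4 of 6 tested of 9 lower and 2 higher. Cdh16, the kidney cadherin gene, and the keratin genes Krt8 and Krt18 had log2 fold changes of -0.59 ± 0.11, -0.6 ± 0.17 and -0.6 ± 0.14, while Pax8, a transcription factor gene of the nephron epithelium, was higher (0.86 ± 0.23). Krt8 and Krt18 also belong to the list of injured and repairing tubules above. The summed level was 1562 to 1689 CPM with MK-8617 and 2070 to 2734 CPM with IRI alone. Krt8 made up 46.4% to 54.1% of that sum with MK-8617 and 50.3% to 59.3% with IRI alone. Without it the other 5 members summed to 733 to 882 CPM with MK-8617 and 1028 to 1112 CPM with IRI alone. With the length trend removed 1 epithelial member was lower, as without MK-8617 replicate 2 or 3, and 2 were without IRI replicate 1. The number higher was 0 or 1 without any one library. Pax2 was also called higher (0.35 ± 0.11) and Cldn3 lower (-0.44 ± 0.14), both named after their values were seen. The Pax2 call was lost in 8 of 16 settings and the Cldn3 call in 9, each in 5 of the 6 that leave out a library, and with the length trend removed Cldn3 was at -0.06. The Krt8 call was lost with the length trend removed and without MK-8617 replicate 2, MK-8617 replicate 3 or IRI replicate 1, that of Krt18 with the length trend removed (-0.27) and without MK-8617 replicate 2 or 3, and the Pax8 call without MK-8617 replicate 1 or 3 or IRI replicate 1 or 2.

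Along the nephron, 2 of 5 tested proximal tubule genes rose and 1 fell, with Slc22a8, an organic anion transporter gene, at 1.85 ± 0.15, Ass1, a urea cycle gene, at 0.8 ± 0.26 and Gatm, the gene of an enzyme of creatine synthesis, at -1.23 ± 0.22. The Ass1 call was lost in 7 of 16 settings, of which 5 leave out a library, and without IRI replicate 3 its value was 0.5. The number that rose was 4 without IRI replicate 2 or with the length trend removed, and 1 without any MK-8617 replicate. The defining markers Slc34a1, Lrp2, Cubn and Hnf4a were outside the table. Of 8 tested genes of the loop of Henle 5 fell and 1, Egf, rose. Slc12a1, the sodium-potassium-chloride cotransporter gene of the thick ascending limb, had a log2 fold change of -1.7 ± 0.21, and the summed level of this list was 1912 to 3050 CPM with MK-8617 and 1568 to 2546 CPM with IRI alone. Umod, which did not pass the threshold, made up 85.9% to 92.1% of that sum with MK-8617 and 77.8% to 81.4% with IRI alone. Without it the other 7 members summed to 236.5 to 269 CPM with MK-8617 and 349 to 500.5 CPM with IRI alone. Of 9 tested distal tubule and collecting duct genes 2 rose, Trpm6 and Pvalb, and 2 genes of intercalated cells fell, Atp6v1g3 and Slc4a1, with 424 to 561 CPM and 455 to 518 CPM in the MK-8617 and IRI groups. The number that fell was 1 without MK-8617 replicate 3 and 4 without IRI replicate 3. Of the podocyte genes Nphs1 (0.42 ± 0.11) and Wt1 (0.91 ± 0.2) were higher and Nes (-0.54 ± 0.16) was lower. The Nphs1 call was lost without MK-8617 replicate 1 (0.38), and that of Nes without MK-8617 replicate 1 or 2 or IRI replicate 1 or 3. No listed marker of any cell type had 0 reads in all 6 libraries. The selection of the table on p-values fixes this in advance, so it does not show that each cell type was detected.

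Outside the epithelium, fibroblast and smooth muscle genes fell in 7 of 8 tested members and rose in 1, from a list of 13, a rise of Dcn (decorin, named after its values were seen) that was lost without MK-8617 replicate 1 or 3. Col1a1, the type I collagen gene, had a log2 fold change of -2.17 ± 0.22, and the list summed to 335 to 415 CPM with MK-8617 and 1060 to 1837 CPM with IRI alone. Macrophage genes fell in 8 of 11 tested members and rose in 1, Cd14 (1.77 ± 0.1), with 195 to 232 CPM with MK-8617 and 205 to 374 CPM with IRI alone. Without Cd14, which made up 61.3% to 65.7% of the sum with MK-8617 and 11.3% to 20% with IRI alone, the other 10 members summed to 66.9 to 89.6 CPM with MK-8617 and 164 to 332 CPM with IRI alone. Of 11 endothelial markers 2 were tested, with Flt1 higher (0.98 ± 0.17) and Emcn (-0.33 ± 0.12) past the threshold only without MK-8617 replicate 3 (-0.43) or with adjustment over listed genes, at a summed 218 to 293 CPM with MK-8617 and 150.4 to 192 CPM with IRI alone. Neutrophil genes had 1 higher (Ngp) and 2 lower (S100a8 and S100a9) of 3 tested, at 11.7 to 28.7 CPM with MK-8617 and 30.02 to 46.7 CPM with IRI alone, and 0 were lower without MK-8617 replicate 1 or 3. Of 12 lymphocyte genes 1, Gzma, was listed, with 0 reads in each MK-8617 library, and it was not tested. All 15 cycling-cell genes were tested, 11 were lower and 0 higher, at 118 to 124 CPM with MK-8617 and 298 to 725 CPM with IRI alone, with the top value in IRI replicate 2. With limma-voom on whole reads 7 were lower. The part of these cell types in the Sox9 difference was not tested.

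The Sox9 result held over the alternatives tried. Under 16 other settings its log2 fold change on normalised counts lay between 1.43 and 1.8, and the limma, edgeR or DESeq2 adjusted p between 4.5e-11 and 0.00766. The lowest bound of any interval, without MK-8617 replicate 1, was 0.9.

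**Figure D5:**
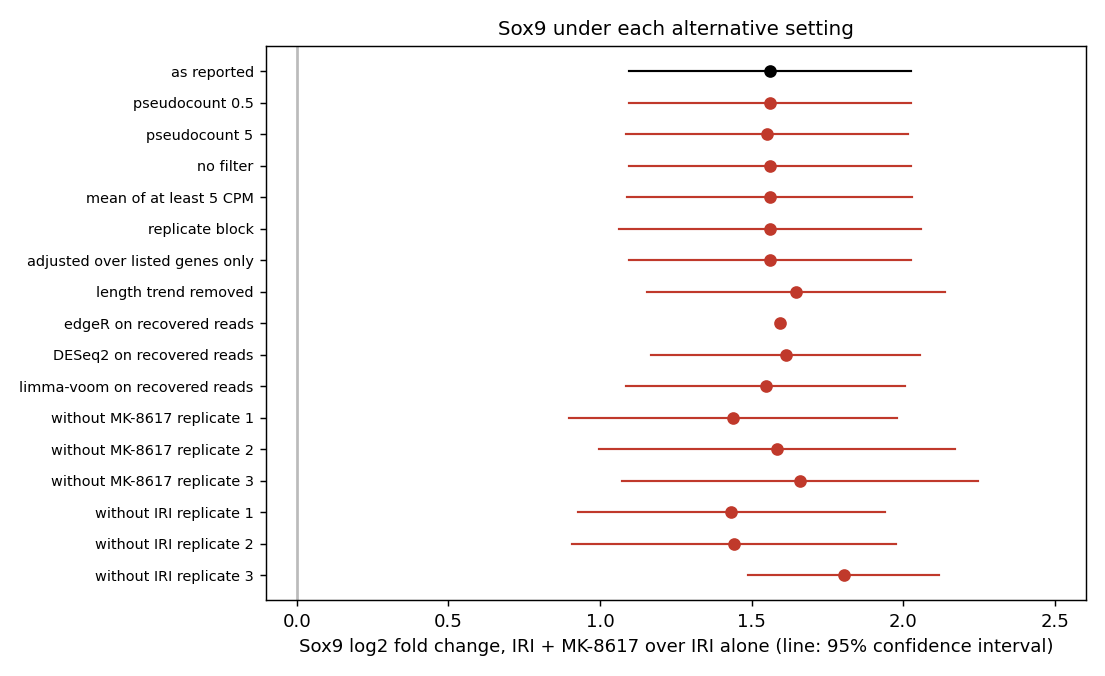
Sox9 log2 fold change (points) with its 95% confidence interval (lines) as reported, in black, and under 16 alternative settings, in red. The edgeR test gives no interval. All points lie between 1.43 and 1.8.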

How the data were processed

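RNA from 6 kidney samples was sequenced after TRIzol extraction and NEBNext Ultra RNA library preparation, per the labels' protocols. Per the submitters' processing notes, HISAT2 2.0.5 and fastp were used with CASAVA 1.8, DESeq2 1.20.0 and featureCounts 1.5.0-p3. These notes name the human builds GRCh38 and hg38, but the deposited gene identifiers are mouse ones, of which 7338 of 7340 matched GENCODE M21 (GRCm38). The authors deposited a signal per gene and library, which is the read count divided by a size factor (0.937 to 1.1), as well as FPKM values, a raw count for IRI replicate 3, and their own log2 fold changes and p-values. Multiplying back gave whole reads, to within 0.001, for 100% of values, and these equalled the deposited raw count in 7340 of 7340 genes. A floor of 3 reads is 0.154 to 0.178 CPM. Another 13 columns have neither name nor values and were not used, and 11 symbols turned into dates were restored.

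Samples were grouped by their titles. The filter on low values (filterByExpr, edgeR 4.0.16) kept 6961 genes, and limma 3.58.1 in R 4.3.3 (trend, robust) was fitted to log2(value + 1), or log2(FPKM + 0.1), over the whole table. The added constant understates the change of low genes. P-values were adjusted by Benjamini-Hochberg over 18811 genes, the number that the deposited adjusted p-values imply, with a threshold of 0.05. Of these, 11560 lie beyond the table and are not used here. DESeq2 1.42.0, edgeR and limma-voom on recovered reads, other filters and pseudocounts, a replicate block, removal of a trend on gene length and leaving out each library were alternatives. List sums without their most abundant member were added after the sums were seen. The scripts were tested on simulated data. SDs are over libraries and SEs are those of limma. No pair of replicates was as alike as counting error alone would make them (chi-square over its degrees of freedom, 17.1 to 47.5). Figures were drawn with matplotlib 3.10.9.

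The gene and the lists were chosen with earlier results of these data known, so list counts are described beside the counts over all genes and carry no test of their own. Named genes were the listed SOX family members, up to 4 members of each other list with the smallest adjusted p, listed genes within 2 Mb of Sox9 and the 10 genes with the nearest profile, and a gene outside this rule is said to be so or is given in a list's count. A few genes that this rule takes, and the podocyte list's count, are not reported here.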

Additional observations from a re-analysis of the deposited data

How the results depend on the processing

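Sox9 stayed higher with MK-8617 and past the threshold in all 29 recomputed values, 16 on normalised counts and 13 on FPKM, where the log2 fold change was 1.4 to 1.77. The number of genes called was 5173, and 3464 to 6767 under the alternatives. Deviations of same-numbered libraries correlated at 0.02, 0.12 and 0.11 across genes, and those of the other pairs at -0.13 to 0.02. The same-numbered values were thus the highest, but all were small, and the numbers were not taken to pair the samples. With the replicate block the Sox9 log2 fold change was 1.56 (adjusted p = 0.00279), and 1.53 on FPKM (adjusted p = 0.0118). With the length trend removed the median over all tested genes was -0.11, against -0.31, and Sox9 was at 1.65, or 1.76 above that median against 1.87. Of 1434 recomputed values of 90 other named genes, 74 lost their call, 11 gained one and none turned direction, and 84 of 672 list counts moved by over 1.5 times. Genes outside the table were not analysed here, so no list is covered whole, and with 3 libraries a group a small difference can be missed.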
